A study of Mus musculus with 4 samples.

Results

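Colonocytes, the absorptive cells of the colon surface, were compared between cells labelled Ctrl_DSS and cells labelled Ctrl_WT in a droplet single-cell RNA experiment on mouse colon. A barcode counted as a colonocyte if it passed the quality limits of 1000 gene UMIs or more (unique molecular identifiers, 1 per captured transcript), 250 genes or more and no more than 25% of UMIs from mitochondrial genes. It also had at least 3 UMIs of Epcam and Krt8 together and at least 10 of Aqp8, Clca4a, Fxyd4, Tgm3 and Car1 together. Barcodes with 5 or more Muc2 UMIs, over 2 of Chga and Chgb, over 1 of Mki67 and Top2a, or any of Ptprc were left out. A tag was called where its hashtag count was at least 2.5 times its median over the quality-passing barcodes of the batch and the other 3 hashtags were below that level. The cells were thus chosen by the counts of 13 genes and 4 hashtags, so those genes are given as levels only and were not tested. Of 13158 quality-passing barcodes, 3460 were colonocytes with any tag or none, and 174 of these carried 1 of the 2 tags compared. In batches 1 and 2 there were 18 and 54 labelled Ctrl_WT, and 33 and 69 labelled Ctrl_DSS.

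All mice were of the strain C57/BL6J. The study had 4 conditions, wild type and JUP-KO, each untreated or on DSS (dextran sulfate sodium, which damages the epithelium of the colon and is used to model colitis). Each condition got 1 hashtag antibody, and the tagged cells were mixed per batch, sorted for viability and run as 1 gene expression library with 1 hashtag library. Under both readings of the tag names, Ctrl_WT is untreated wild type and TG_DSS is JUP-KO on DSS. Going by the names, Ctrl_DSS would mark wild-type mice on DSS, and TG_WT would mark JUP-KO mice without treatment. Going by the order of the antibody numbers, Ctrl_DSS would mark JUP-KO mice without treatment, and TG_WT would mark wild-type mice on DSS. The sources used here do not settle which holds, so every group is called by its tag. The promoter or cell type in which Jup was deleted, the DSS dose and time, the age of the mice and whether the batches came from separate mice are not given in the sources used here. With 1 sum of cells per tag and batch, p-values measure the spread between these sums, which may be partly technical.

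Colonocytes leave the crypt, mature as they reach the surface and are shed there. They take up sodium, chloride, water and short-chain fatty acids from the gut content, burn much of the butyrate themselves and are held together by desmosomes, adherens junctions and tight junctions. Jup encodes plakoglobin (gamma-catenin), which links desmosomal and classical cadherins to plakins and actin-binding partners inside the cell. DSS colitis strips this surface layer, and the epithelium that closes the wounds is known to express growth factors of the EGF family, chemokines and antimicrobial proteins.

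Batch 1 held 133919905 gene UMIs and batch 2 held 95408149, over all barcodes. The colonocyte sums compared held between 377955 UMIs (Ctrl_WT, batch 1) and 1499873 UMIs (Ctrl_DSS, batch 2). Median depth per cell was 13784.5 and 16653.5 UMIs for Ctrl_WT and 18184 and 19872 UMIs for Ctrl_DSS, so cells labelled Ctrl_DSS were deeper in each batch. Median mitochondrial shares were 9.0% and 5.07% for Ctrl_WT, and 6.05% and 4.27% for Ctrl_DSS. No barcode of the 174 occurred in both batches, while 13 of all quality-passing barcodes did. Of the colonocytes, 2946 carried no tag and 25 carried several, and these entered no comparison.

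The tag calls lay close to their threshold, more so for Ctrl_DSS. The median hashtag ratio, the count divided by the batch median, was 3.80 and 3.32 for Ctrl_WT and 2.90 and 2.95 for Ctrl_DSS. Ratios under 3 were found in 5 of 18 and 17 of 54 cells labelled Ctrl_WT (27.8% and 31.5%), against 21 of 33 and 38 of 69 labelled Ctrl_DSS (63.6% and 55.1%). Just outside the threshold, 30 and 38 untagged colonocytes had a Ctrl_WT ratio from 2 to 2.5, and 47 and 87 had a Ctrl_DSS ratio in that range. The highest ratio left out was 2.48 and the lowest taken in was 2.50. On the marker side the lowest sums taken in were 17 and 10 UMIs for Ctrl_WT and 16 and 18 for Ctrl_DSS, and 7 and 2 tagged barcodes for Ctrl_WT, with 27 and 20 for Ctrl_DSS, had 5 to 9 marker UMIs. The part that weak tag calls play in the results was not tested beyond the tag thresholds tried.

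**Figure D1:**
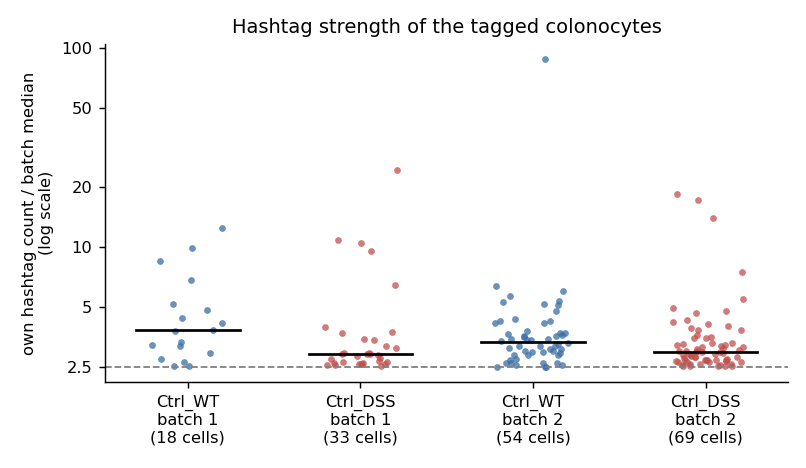
Hashtag strength of each of the 174 colonocytes, as its own hashtag count divided by the batch median (vertical axis, log scale), by tag and batch. Points are cells, black bars are medians (3.80 and 3.32 for Ctrl_WT, 2.90 and 2.95 for Ctrl_DSS) and the dashed line is the threshold of 2.5, on which many cells labelled Ctrl_DSS sit.

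The label of colonocyte was set beside markers that the selection did not read. Detection in a sum is a weak check of the label, as 7 to 9 of 10 goblet markers were also detected in these sums. All 14 of 14 colonocyte markers outside the selection were detected in all 4 sums. Among them were Slc26a3 (the chloride-bicarbonate exchanger), Krt20 (a keratin of mature surface cells) and Guca2a (the guanylin precursor). Their summed level was 21640 and 18590 UMIs per 1000000 UMIs of the sum (CPM) for Ctrl_WT and 19650 and 22000 CPM for Ctrl_DSS, and these ranges overlapped. The median log2 fold change of the 14 was -0.01. Among the genes that chose the cells, Car1, a carbonic anhydrase, carried most of the marker UMIs at 14170 and 29940 CPM for Ctrl_WT against 18380 and 29970 CPM for Ctrl_DSS. Aqp8, a water channel, was at 574 and 430 CPM against 143 and 533 CPM, and Clca4a at 423 and 201 CPM against 216 and 349 CPM. Fxyd4, a regulator of the sodium pump, was at 92.6 and 176 CPM for Ctrl_WT and 1.29 and 11.3 CPM for Ctrl_DSS. Fxyd4 UMIs were found in 5 of 18 and 12 of 54 cells labelled Ctrl_WT and in 1 of 33 and 4 of 69 labelled Ctrl_DSS. As Fxyd4 belongs to the marker sum that chose the cells, its difference between the tags was not tested.

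Markers of other cells were low in all 4 sums. The 10 neutrophil markers summed to 116 and 115 CPM for Ctrl_WT and 154 and 84.7 CPM for Ctrl_DSS. Of them 4 and 4 were detected for Ctrl_WT and 4 and 5 for Ctrl_DSS, with the receptors Csf3r and Cxcr2 at 0 in all 4 sums. In the sums labelled TG_DSS the same list reached 10390 and 4458 CPM. Macrophage and dendritic markers summed to 10.6 and 14.5 CPM for Ctrl_WT and 10.3 and 12 CPM for Ctrl_DSS. Of these 10 markers, 4 and 3 were detected for Ctrl_WT and 6 and 7 for Ctrl_DSS, whose sums held more UMIs in each batch. Goblet markers were at 410 and 356 CPM against 364 and 315 CPM, and stem and cycling markers at 84.7 and 95.6 CPM against 133 and 64.0 CPM. Lymphoid and plasma markers were at 0 and 34.5 CPM against 47.6 and 31.3 CPM, and fibroblast and endothelial markers at 0 and 148 CPM against 1.29 and 45.3 CPM. The ranges of these 6 lists overlapped between the tags. Those of enteroendocrine markers (21.2 and 18.9 CPM against 46.3 and 43.3 CPM) and tuft markers (18.5 and 33.4 CPM against 46.3 and 42.0 CPM) were higher for Ctrl_DSS in both batches. Of the 10 tuft markers, 1 and 4 were detected for Ctrl_WT and 3 and 4 for Ctrl_DSS, with Dclk1 and Trpm5 at 0 in all 4 sums.

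No gene differed between the tags at the threshold used. By edgeR's quasi-likelihood test with batch as a term, 0 of 7631 genes tested (0%) had an adjusted p under 0.05, and the smallest adjusted p was 0.267, for Clu. The unadjusted p was under 0.05 for 273 genes (3.58%), 107 higher and 166 lower in Ctrl_DSS. DESeq2 called 0 genes as well, with 76 at an unadjusted p under 0.05. Both Ctrl_DSS sums lay above both Ctrl_WT sums for 993 genes (13%) and below both for 1445 genes (18.9%). The median log2 fold change of all genes tested was -0.004, which TMM scaling sets near 0, and was -0.046 with library totals alone. With 1 sum left out at a time the count ran from 0 to 19 genes: 1 without either Ctrl_WT sum, 15 without Ctrl_DSS of batch 1, and 16 and 19 without TG_WT of batch 1 and batch 2. Without any low-count filter it was 39. Genes and lists are therefore described by their values and read against these shares.

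**Figure D2:**
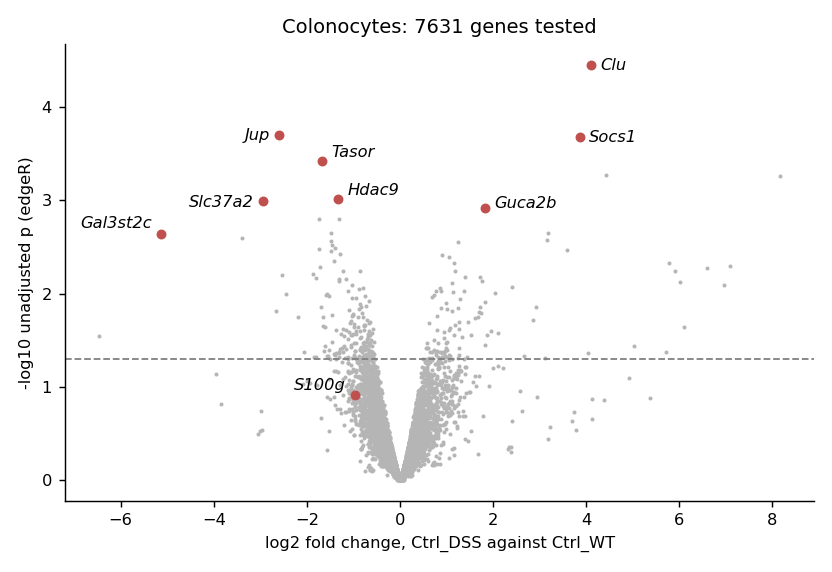
Log2 fold change of Ctrl_DSS against Ctrl_WT (horizontal axis) and the negative log10 of the unadjusted edgeR p (vertical axis) for the 7631 genes tested in colonocytes. The dashed line marks the unadjusted threshold of 0.05 and red points are genes described in the text; 273 genes lie above the line, and Clu, highest in the plot, has an adjusted p of 0.267.

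Jup, the gene targeted in the knockout, was lower in cells labelled Ctrl_DSS in both batches, without passing the test. The gene lies on chromosome 11 from 100368958 to 100397763, minus strand (mm10). Its level was 103 and 72.3 CPM in the Ctrl_WT sums (39 and 65 UMIs) and 23.2 and 7.33 CPM in the Ctrl_DSS sums (18 and 11 UMIs). Both Ctrl_DSS values lay below both Ctrl_WT values, with no overlap. The log2 fold change was -2.60 ± 0.50 (SE derived from the test, 2 sums per tag), with an edgeR adjusted p of 0.530. Jup passed without Ctrl_DSS of batch 1 (adjusted p 0.0161) and without TG_WT of batch 1 or batch 2 (0.00286 and 8.2e-04), and was at -1.72 with an adjusted p of 1.0 without Ctrl_DSS of batch 2. The other tags were at 99.8 and 114.5 CPM (TG_WT) and 26.1 and 76.7 CPM (TG_DSS), and untagged colonocytes were at 43.4 and 45.9 CPM. Jup was thus highest under Ctrl_WT and TG_WT and lowest under Ctrl_DSS, and the TG_DSS values spanned from near the Ctrl_DSS values up to the Ctrl_WT range.

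Cell by cell the same order was seen. A Jup UMI was found in 12 of 18 and 29 of 54 cells labelled Ctrl_WT (66.7% and 53.7%), and in 10 of 33 and 8 of 69 labelled Ctrl_DSS (30.3% and 11.6%), although the latter were deeper. No single cell held over 27.8% of a sum's Jup UMIs. When each cell was thinned to 1000 UMIs, Jup was found in 1 of 18, 3 of 54, 1 of 33 and 1 of 69 cells, too few to read. At 10000 UMIs, a level chosen after the data were seen, 8 of 15 and 14 of 36 Ctrl_WT cells had a Jup UMI, or 53.3% (95% exact Clopper-Pearson interval 26.6 to 78.7%) and 38.9% (23.1 to 56.5%). In the cells labelled Ctrl_DSS it was found in 7 of 33 and 3 of 51, or 21.2% (8.98 to 38.9%) and 5.88% (1.23 to 16.2%). Intervals cover counting error only, and the number of shallower cells left out was 3 and 18 for Ctrl_WT and 0 and 18 for Ctrl_DSS. In leukocyte barcodes, defined by at least 3 Ptprc UMIs and none of Epcam or Krt8, Jup was found in 3.33% and 2.45% at medians of 3581 and 5152.5 UMIs. The share of Ctrl_DSS cells in batch 2 is close to that background, which came from shallower barcodes.

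**Figure D3:**
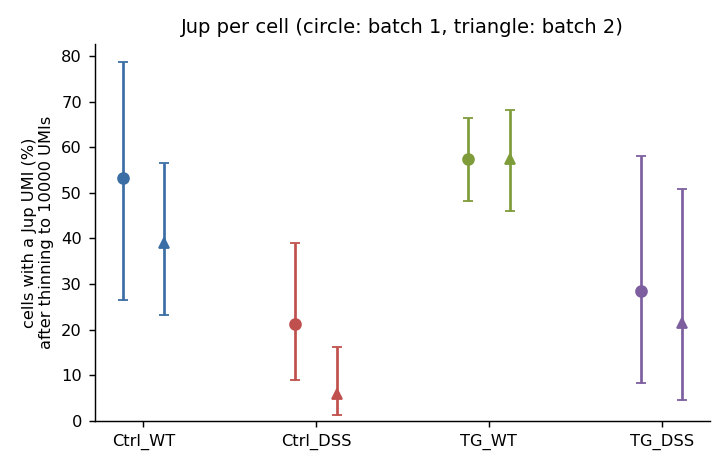
Share of colonocytes with at least 1 Jup UMI after thinning each cell to 10000 UMIs (vertical axis, percent), by tag. Circles are batch 1, triangles batch 2, and bars are 95% exact intervals of counting error; the Ctrl_DSS shares of 21.2% and 5.88% lie below the Ctrl_WT shares of 53.3% and 38.9%, and the intervals of these tags overlap in batch 1 and do not in batch 2.

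Other genes of desmosomes and adherens junctions stayed nearer to 0 than Jup. Of the 18 genes in that list 17 were tested, 12 had a log2 fold change below 0 and the median was -0.17. Jup was the only member with an unadjusted p under 0.05 (5.88% of 17, beside 2.18% of all genes lower at that level). Without overlap, 5 members were lower (29.4% of 17, beside 18.9% of all genes). The desmosomal cadherins Dsg2 and Dsc2 were at 315 and 296 CPM against 266 and 249 CPM, and at 111 and 101 CPM against 90.1 and 77.3 CPM. Beta-catenin (Ctnnb1), the close relative of plakoglobin, was at 241 and 161 CPM for Ctrl_WT and 190 and 197 CPM for Ctrl_DSS, with a log2 fold change of 0.02. E-cadherin (Cdh1) was at 413 and 319 CPM against 342 and 287 CPM, and its ranges overlapped. Of 19 tight junction genes tested the median was -0.10. Cldn4 had the smallest unadjusted p (2.65 and 7.78 CPM against 5.15 and 29.3 CPM, adjusted p 1.0), and its ranges overlapped. The scaffold Tjp1 was at 92.6 and 73.4 CPM against 55.3 and 54.0 CPM, lower without overlap but with an unadjusted edgeR p of 0.0609.

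S100g encodes calbindin-D9k, a calcium buffer of absorptive cells, and was in the same order as Jup between Ctrl_DSS and TG_WT but not against Ctrl_WT. It was at 58.2 and 102 CPM for Ctrl_WT and 70.8 and 18.7 CPM for Ctrl_DSS, and these ranges overlapped (log2 fold change -0.97 ± 0.59, SE, adjusted p 1.0). A single cell held 20 of 22 UMIs of the Ctrl_WT sum of batch 1 and another held 50 of 55 UMIs of the Ctrl_DSS sum of batch 1. Without the Ctrl_DSS sum of batch 2 its sign turned (0.21), and with a tag threshold of 2 times the median it was -3.65 (adjusted p 0.0709). In TG_WT it was at 405 and 353 CPM. The sodium-calcium exchanger Slc8a1 was at 537 and 252 CPM for Ctrl_WT and 210 and 181 CPM for Ctrl_DSS, lower without overlap (log2 fold change -0.85 ± 0.26, SE, adjusted p 1.0), and TG_WT was at 229 and 115 CPM, below Ctrl_DSS in batch 2. The plasma membrane calcium pump Atp2b1 was at 622 and 706 CPM against 405 and 477 CPM. Of 12 calcium-handling genes tested, Slc8a1 and Atp2b1 were lower at an unadjusted edgeR p under 0.05 (16.7%, beside 2.18% of all genes). The share lower without overlap was 16.7% (beside 18.9% of all genes), and the median log2 fold change was 0.03.

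Single transporters of sodium, chloride and nutrients were lower in both Ctrl_DSS sums, while the lists they belong to had shares of such members near that of all genes. Their shares lower at an unadjusted p under 0.05 were above that of all genes. Of 20 sodium and chloride transport genes tested, 15 had a log2 fold change below 0, with a median of -0.26, and 5 were lower without overlap (25.0%, beside 18.9% of all genes). At an unadjusted edgeR p under 0.05, 2 were lower (10.0%, beside 2.18% of all genes). Atp12a, the colonic hydrogen-potassium ATPase, was at 55.6 and 54.5 CPM for Ctrl_WT and 9.0 and 26.0 CPM for Ctrl_DSS, and its log2 fold change was -1.48 (SE 0.41; adjusted p 1.0). Its sign turned with a stricter tag threshold of 4 times the median (0.38). Sgk1, a kinase that raises sodium uptake, was at 132 and 170 CPM against 82.3 and 105 CPM. The main exchangers did not separate: Slc26a3 was at 648 and 598 CPM against 396 and 675 CPM, and Slc9a3 (NHE3) at 122 and 140 CPM against 108 and 164 CPM. Among 25 tested genes of nutrient, bile acid and metal transport the median was -0.07, and 5 were lower without overlap (20.0%). The unadjusted edgeR p was under 0.05 for 4 lower members (16.0%, beside 2.18% of all genes) and 1 higher member (4.0%, beside 1.40%). The peptide transporter Slc15a1 was at 34.4 and 37.8 CPM for Ctrl_WT and 10.3 and 14 CPM for Ctrl_DSS. Slc37a2, a sugar-phosphate exchanger, was at 52.9 and 104.5 CPM against 24.4 and 4.67 CPM. The manganese exporter Slc30a10 was at 55.6 and 20.0 CPM against 16.7 and 5.33 CPM, and the iron exporter Slc40a1 (ferroportin) at 100.5 and 151 CPM against 78.5 and 78.7 CPM. Each of these 4 transporters was lower in both Ctrl_DSS sums than in both Ctrl_WT sums, with adjusted p between 0.978 and 1.0. Fabp6, the bile acid binding protein, was at 10.6 and 32.2 CPM against 5.15 and 389 CPM, where 1 cell held 503 of 583 UMIs.

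**Figure D4:**
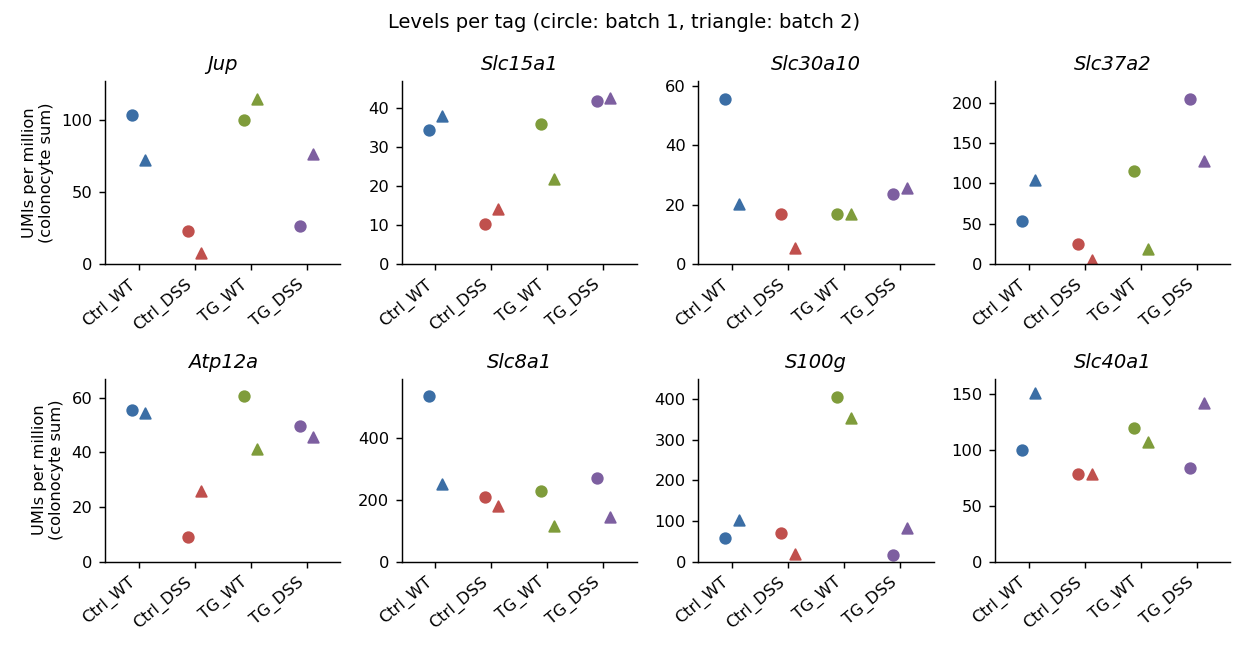
Level of 8 genes in colonocyte sums (CPM, vertical axes from 0, each panel with its own range), by tag, with circles for batch 1 and triangles for batch 2. In the panels of Jup, Slc15a1, Slc30a10, Slc37a2, Atp12a, Slc8a1 and Slc40a1 both Ctrl_DSS sums lie below both Ctrl_WT sums, and for S100g they overlap; no gene shown passed the test.

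Among genes of cytokine signalling and epithelial repair, a few had Ctrl_DSS values above those of Ctrl_WT. Socs1, the inhibitor of cytokine signalling through JAK kinases, was at 0 and 3.34 CPM for Ctrl_WT (3 UMIs in all) and 14.2 and 38.0 CPM for Ctrl_DSS (68 UMIs). This is a ratio of 12.7 (exact 95% interval 4.17 to 63.2, counting error only), with UMIs in 0 of 18, 3 of 54, 6 of 33 and 20 of 69 cells and an edgeR adjusted p of 0.530. Areg, the EGF-family ligand amphiregulin, was at 148 and 208 CPM for Ctrl_WT and 417 and 374 CPM for Ctrl_DSS, higher without overlap (log2 fold change 1.17 ± 0.34, SE, adjusted p 1.0). It was spread over 28 of 33 and 53 of 69 cells labelled Ctrl_DSS and 13 of 18 and 37 of 54 labelled Ctrl_WT. Clu (clusterin), a marker of regenerating crypt cells, had the smallest p of all genes, at 0 and 4.45 CPM against 2.57 and 82.0 CPM. Its ranges overlapped, and 1 cell held 64 of the 123 UMIs in the batch 2 sum of Ctrl_DSS. Of 23 repair genes tested, 18 had a log2 fold change above 0, with a median of 0.34, and 3 were higher without overlap (13.0%, beside 13% of all genes) and 4 lower (17.4%, beside 18.9%), both near the shares of all genes. By an unadjusted edgeR p under 0.05, 3 were higher (13.0%, beside 1.40% of all genes) and 1 lower (4.35%, beside 2.18%). Lama3, a laminin chain of the basement membrane, went the other way, at 87.3 and 41.1 CPM against 15.4 and 28.7 CPM.

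Immediate early and heat shock genes, which tissue digestion also induces, formed the list with the most members above without overlap after oxidative phosphorylation. Of 19 tested, 7 were higher without overlap (36.8%, beside 13% of all genes), 16 had a log2 fold change above 0 and the median was 0.33. An unadjusted edgeR p under 0.05 was found for 4, all higher (21.1%, beside 1.40% of all genes). Fos was at 376 and 349 CPM for Ctrl_WT and 567 and 559 CPM for Ctrl_DSS (log2 fold change 0.68 ± 0.23, SE, adjusted p 1.0). Ier3 was at 34.4 and 27.8 CPM against 72.0 and 57.3 CPM, and the chaperone Hspa1a at 140 and 167 CPM against 307 and 251 CPM. Junb and Jund overlapped between the tags. In the list of inflammasome and p38 genes, 28 tested had a median of 0.15. Dusp1, the phosphatase that switches off p38, was at 31.8 and 80.0 CPM against 140 and 115 CPM, and Gadd45a at 18.5 and 34.5 CPM against 73.3 and 40 CPM, both higher without overlap with adjusted p of 1.0. Mapk14 (p38 alpha) was at 23.8 and 25.6 CPM against 39.9 and 21.3 CPM, and Il18 at 280.5 and 268 CPM against 431 and 229 CPM, and both overlapped.

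Interferon-response and antigen-presentation genes had the highest median of the lists plotted, 0.53 over 27 tested, with 24 above 0, but this rested on batch 2. Ifit1 was at 31.8 and 25.6 CPM for Ctrl_WT and 11.6 and 100.0 CPM for Ctrl_DSS, and Isg15 at 265 and 181 CPM against 39.9 and 633 CPM, each below Ctrl_WT in batch 1 and above it in batch 2. In all, 4 of the 27 were higher without overlap (14.8%, beside 13% of all genes), and 2 were higher at an unadjusted edgeR p under 0.05 (7.41%, beside 1.40%). Summed over the list the levels were 3339 and 1871 CPM for Ctrl_WT and 1977 and 4331 CPM for Ctrl_DSS, again in opposite order in the batches. Among 26 tested genes of epithelial inflammation the median was 0.28, with 4 higher without overlap (15.4%, beside 13% of all genes) and 2 lower (7.69%, beside 18.9%). Here 3 were higher at an unadjusted edgeR p under 0.05 (11.5%, beside 1.40% of all genes). The chemokine Ccl20 was at 2.65 and 0 CPM for Ctrl_WT and 1.29 and 540 CPM for Ctrl_DSS, where 4 cells held 810 UMIs and 1 of them 581. The antimicrobial lectin Reg3b was at 167 and 5389 CPM against 5793 and 2120 CPM, which varied more between the batches of a tag than between the tags. Duoxa2, the maturation factor of the oxidase DUOX2, was at 2.65 and 4.45 CPM against 24.4 and 9.33 CPM, higher without overlap. Its Ctrl_WT values rest on few UMIs and lie near the floor.

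Energy metabolism and maturation differed little. All 26 nuclear-encoded oxidative phosphorylation genes were tested, and their log2 fold changes ran from -0.10 to 0.35 with a median of 0.17. Of these, 10 were higher without overlap (38.5%, beside 13% of all genes) and 0 were lower, and none had an unadjusted edgeR p under 0.05. Ndufb8, a subunit of complex I, was at 870.5 and 775 CPM for Ctrl_WT and 918.5 and 1024 CPM for Ctrl_DSS. Of 29 tested genes of fatty acid oxidation and ketone formation the median was 0.10. Cpt1a, which commits fatty acids to import into mitochondria, was at 97.9 and 130 CPM against 131 and 99.3 CPM, and overlapped. The unfolded protein response list (25 tested, median 0.02), detoxification (37 tested, median 0.04), crypt and cycle genes (13 tested, median -0.12), carbonic anhydrases and aquaporins (6 tested, median 0.24) and goblet genes (7 tested, median -0.27) had no member with an unadjusted p under 0.05. In surface maturation (26 tested, median 0.02) the single such member was Guca2b, the uroguanylin precursor. Guca2b was at 37.0 and 37.8 CPM for Ctrl_WT and 56.6 and 207 CPM for Ctrl_DSS, of which 1 cell held 181 of 310 UMIs in batch 2, and the sum without that cell was at 88.0 CPM.

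**Figure D5:**
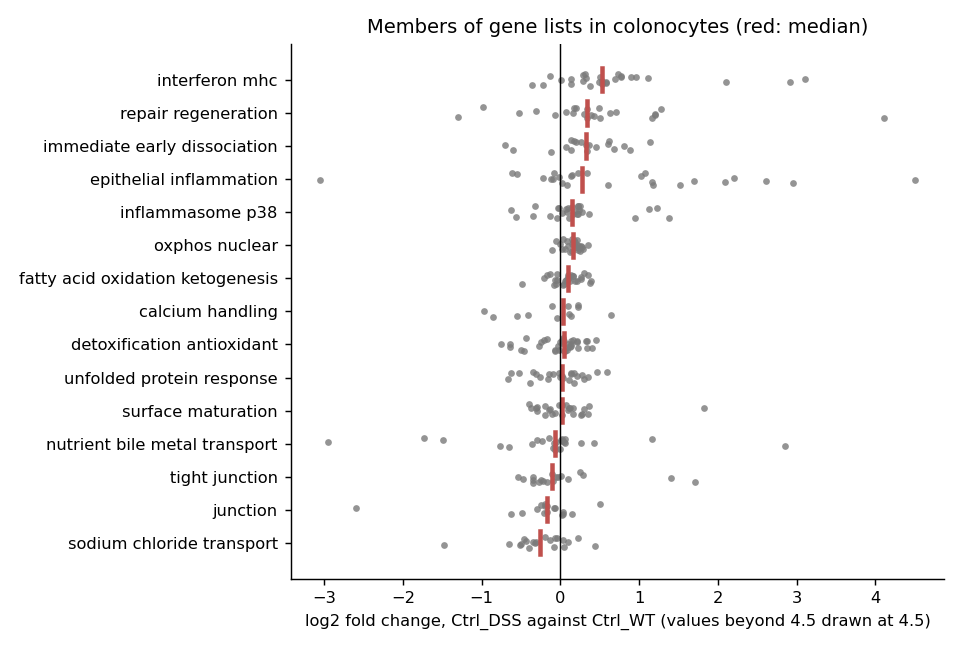
Log2 fold change of Ctrl_DSS against Ctrl_WT in colonocytes (horizontal axis) for each tested member of 15 gene lists, with red bars for the list medians. Of the lists plotted, which leave out goblet genes, crypt and cycle genes, carbonic anhydrases with aquaporins and the genes from earlier results, interferon and antigen-presentation genes have the highest median (0.53) and sodium and chloride transport the lowest (-0.26); Ccl20, at 8.17, is drawn at the axis limit of 4.5.

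The remaining genes with the smallest p and one direction in both batches were mostly lower in Ctrl_DSS. Tasor, a subunit of the HUSH silencing complex, was at 47.6 and 46.7 CPM for Ctrl_WT and 18 and 12 CPM for Ctrl_DSS (log2 fold change -1.67 ± 0.35, SE, adjusted p 0.696). The histone deacetylase Hdac9 was at 79.4 and 53.4 CPM against 24.4 and 24.7 CPM. TG_DSS was lowest, at 2.61 and 2.84 CPM from 1 UMI in each sum. TG_WT was at 29.0 and 26.4 CPM and untagged colonocytes at 30.1 and 24.6 CPM, near Ctrl_DSS and below Ctrl_WT. The same order, with Ctrl_WT above Ctrl_DSS, TG_WT and untagged cells in both batches, was found for Tasor, Nos1ap, Malrd1, Arhgef2 and Txlng, whose log2 fold changes against Ctrl_WT lay between -1.75 and -1.29. Gal3st2c, a sulfotransferase with near-identical paralogs whose reads may be split, had 25 UMIs in Ctrl_WT and 1 in Ctrl_DSS (ratio 0.0224, exact 95% interval 5.47e-04 to 0.137). Btbd3 and Rnf149 had log2 fold changes of -1.48 and -1.39. On the higher side, Ifrd1, an interferon-related regulator, was at 47.6 and 65.6 CPM against 183 and 97.3 CPM, and TG_WT, TG_DSS and untagged cells lay between 139 and 256 CPM, all above Ctrl_WT. Ifi27 was at 66.2 and 63.4 CPM against 118 and 117 CPM, and Gm4951 had 2 UMIs against 37.

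Against TG_WT, a contrast that shares the Ctrl_DSS sums, 2 of 7631 genes (0.0262%) passed, Apoe and Bglap3, both lower in Ctrl_DSS (edgeR adjusted p 0.0198 and 0.0387). Apoe, an apolipoprotein of macrophages and other cells, had log2 fold change -3.82, and 1 cell held 38 of its 60 UMIs in the TG_WT sum of batch 1. Jup had a log2 fold change of -2.99 there with an adjusted p of 0.0713, and S100g of -3.21 with 0.0910. For some of the other named genes the contrasts did not run alike. Slc8a1 was at 0.27 against TG_WT, Socs1 at -0.51, Clu at 0.26 and Hdac9 at -0.17, beside -0.85, 3.86, 4.11 and -1.33 against Ctrl_WT. Others kept their direction, such as Gal3st2c (-4.81 against TG_WT, -5.14 against Ctrl_WT) and Slc37a2 (-2.19 and -2.95). Slc15a1 and Atp12a were at -1.18 and -1.43 against TG_WT, close to their values of -1.49 and -1.48 against Ctrl_WT.

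Of a list of 26 genes that earlier results on the whole epithelium of these data had put forward, 19 could be tested in colonocytes. It was chosen on these samples and is no independent evidence of its direction. At an unadjusted p under 0.05, 7 were lower (Jup, Slc30a10, Slc15a1, Hdac9, Lama3, Slc8a1 and Slc40a1) and 2 higher (Fabp6, whose ranges overlapped, and Ceacam10), and over all genes tested 2.18% were lower and 1.40% higher at that threshold. The median log2 fold change of the list was -0.35. Ceacam10, a secreted adhesion molecule, was at 7.94 and 4.45 CPM for Ctrl_WT and 32.2 and 12 CPM for Ctrl_DSS. The Ctrl_WT values rest on few UMIs, found in 2 of 18 and 2 of 54 cells, against 11 of 33 and 13 of 69 labelled Ctrl_DSS. Agr2, Slc9a2, Herpud1, Slc6a14 and Acadvl from that list overlapped between the tags.

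The tag difference of colonocytes was set against that of the remaining epithelial barcodes, which had at least 3 UMIs of Epcam and Krt8, none of Ptprc and failed another part of the selection. There were 18 and 20 of these labelled Ctrl_WT and 162 and 175 labelled Ctrl_DSS, so the cell types behind them may differ between the tags; this comparison was chosen after the data were seen. Jup was at 43.8 and 51.4 CPM for Ctrl_WT and 13.1 and 9.82 CPM for Ctrl_DSS there (log2 fold change -2.04 ± 0.45, SE, edgeR adjusted p 0.374), again with no overlap. The difference between the types was -0.54 ± 0.46 (SE) on the log2 scale for Jup, with an adjusted p of 0.890. In those cells 4 of 10502 genes (0.0381%) passed, with Slpi, Clca1 and Gcg higher and Fabp4 lower in Ctrl_DSS. Slpi was at 4.18 and 16.2 CPM against 67.0 and 283 CPM, and Clca1, a goblet cell product, at 52.2 and 124 CPM against 427 and 889 CPM. Gcg, a hormone gene of L cells, rested on batch 1 (2.09 CPM against 226 CPM, beside 0 and 0.669 CPM in batch 2). Fabp4 was at 96.0 and 2.70 CPM against 0 in both Ctrl_DSS sums, so it too rested mostly on batch 1. By the test of the difference, 1 of 9545 genes (0.0105%) passed, Tff3, the trefoil peptide of goblet cells, a cell type that the limit on Muc2 in the colonocyte selection bears on. The count was 5 and 7 without Ctrl_WT of batch 1 and batch 2, and 6 and 1 without Ctrl_DSS of batch 1 and batch 2.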

How the data were processed

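Cells of mouse colon were profiled with a droplet 3' kit and 4 hashtag antibodies in 2 batches. The authors deposited raw UMI counts per gene and hashtag for every barcode, per the file headers and the values, made with Cell Ranger 7.0.0 on mm10 per the submitters' processing notes. For the annotation release, the sources used here give nothing. Of 32285 gene identifiers, 32235 (99.85%) were found in GENCODE M21, which gave the coordinates.

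Counts were summed over colonocytes per tag and batch, for all 4 tags, and compared by edgeR 4.0.16 under R 4.3.3 (filterByExpr, TMM scaling, quasi-likelihood test, tag and batch as terms, Benjamini-Hochberg adjustment over 7631 genes, threshold 0.05). The 13 genes of the selection were not tested. DESeq2 1.42.0 was an alternative. The fit was also run on simulated counts, drawn with the same spread for all genes and no batch difference. Its outcome is not reported here. CPM is UMIs per 1000000 UMIs of a sum. Each SE is the absolute log2 fold change divided by the square root of the quasi-likelihood F statistic. It is thus derived from the test, whose spread estimate draws on the sums of all 4 tags and on other genes. Cells over several tags were left out as doublets, and no other doublet caller was run. Batch is a term because the labels put all tags of a batch into 1 library. Over genes, the batch differences of Ctrl_WT and Ctrl_DSS correlated at r = 0.044, and those of the other tag pairs between -0.13 and 0.283.

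Cells, gene lists and markers were chosen with earlier results of these data known. Named were Jup, S100g and Slc8a1, the 20 genes with the smallest p and 1 sign in both batches, and the 1 or 2 members of a list with the smallest p. Other genes were chosen after their values were seen, and some genes that the rule names are not reported here. Alternatives covered the tag threshold, quality limits, selection, scaling, filter, tool, block and each sum left out.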

Additional observations from a re-analysis of the deposited data

Results flagged for a closer look

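Tff3 was taken out for a closer look because its tag difference differed between colonocytes and the other epithelial barcodes by the test of that difference. The difference, colonocytes minus others, was -3.95 ± 0.54 (SE, log2; edgeR adjusted p 0.0346). In colonocytes Tff3 was at 39.7 and 18.9 CPM for Ctrl_WT and 16.7 and 8.67 CPM for Ctrl_DSS. In the other epithelial barcodes it was at 246 and 97.4 CPM for Ctrl_WT and 755 and 1440 CPM for Ctrl_DSS. Leaving out each of the 4 sums in turn gave -4.71 to -2.98, and it did not pass without Ctrl_WT replicate 2 (adjusted p 0.0526) or without Ctrl_DSS replicate 2 (0.109). Clca1, another goblet cell product, moved with it in the other epithelial barcodes (52.2 and 124 CPM against 427 and 889 CPM). Barcodes with 5 or more Muc2 UMIs were left out of the colonocytes but could stay among the other barcodes. Goblet cell number and a change within cells thus cannot be told apart in the Tff3 value, and neither was tested.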

How the results depend on the processing

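Against Ctrl_WT the count of genes called was 0, and also without the replicate block (0), with RLE size factors, library totals alone, DESeq2 or another marker limit. It was 39 with no low-count filter, 3 with the Ctrl_DSS and Ctrl_WT sums alone, 2 with a tag at 4 times the median, 1 at up to 10% mitochondrial UMIs and 1 with cells of 5000 to 30000 UMIs (an alternative added later, with the data known). Leaving out 1 sum gave 0 to 19 genes, with 1 without either Ctrl_WT sum, 15 without Ctrl_DSS replicate 1 and 16 and 19 without TG_WT replicates 1 and 2. Against TG_WT the 2 genes called became 0 without the replicate block, with library totals alone, with marker sums of at least 20 UMIs or 0.2%, without leukocyte UMIs, or with 5000 to 30000 UMIs; 1 with Muc2 at 0 UMIs or equal cell numbers; 4, 11 and 10 with a tag at 2 times, 4 times or the highest tag at least 3 times the next; 90 with no filter; and 2 to 88 with 1 sum left out (88 without TG_WT replicate 1). Jup kept its direction in all 26 alternatives, from -3.91 to -1.72, and passed in 6 of them; without Ctrl_DSS replicate 2 it was -1.72 with an adjusted p of 1.0. S100g ranged from -2.32 to 0.21 with 1 sum left out, turned to 0.21 without Ctrl_DSS replicate 2, was -3.65 (adjusted p 0.0709) with a tag at 2 times the median, and was 0.045 with 5000 to 30000 UMIs. Atp12a turned to 0.38 with a tag at 4 times the median, 0.92 with the highest tag and 0.0089 at up to 10% mitochondrial UMIs. The causes were not tested. Of 546 values of named genes under alternatives, 512 kept their side and direction, 29 newly passed and 5 reversed. Thinning to 10000 in place of 1000 UMIs raises such shares by keeping more UMIs, so the rise says nothing of how robust they are. The Jup shares at 10000 UMIs were 53.3% and 38.9% for Ctrl_WT and 21.2% and 5.88% for Ctrl_DSS. The S100g shares were 6.67% and 16.7% for Ctrl_WT and 9.09% and 17.6% for Ctrl_DSS, close to each other within each batch. The 18 cells of Ctrl_WT in batch 1 limit the precision.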
